A study of Homo sapiens with 15 samples.

Results

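The 10 genes described here encode enzymes and core partners that write DNA methylation, Polycomb repression and constitutive heterochromatin. They are DNMT1, UHRF1, HELLS, DNMT3A, DNMT3B, EZH2, SUZ12, EED, SUV39H1 and SUV39H2. They were chosen by name, and each matched 1 Ensembl identifier among the 60670 genes of the count table. No measured value entered the choice, and all 10 passed the filter on low counts, which kept 18563 genes.

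RNA was sequenced from HT-1080, an established human fibrosarcoma line, in 5 groups of 3 biological replicates. Cycling cells received the vehicle DMSO and carry a 6 h time label. In the other 4 groups the cells had been driven into senescence by 6 days of expression of a dominant negative TRF2, which uncaps telomeres, and were then kept for 6 h or 24 h in DMSO or in GNF-7 at 1 uM. GNF-7 is a tyrosine kinase inhibitor that the study links to activation of the kinase GCN2. No cycling cells received GNF-7, and no cycling vehicle group at 24 h was analysed here, so the effect of GNF-7 was measured in senescent cells only. All groups are 1 cancer cell line, and the labels do not say whether replicates came from separate inductions of senescence, so p-values measure the spread between these samples.

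Library totals ranged from 25991007 to 32323393 counts. TERF2, the gene of the expressed mutant, averaged 58.2 ± 3.65 CPM (counts scaled to library size; SD over 3 libraries) in the cycling group and 287 ± 8.17 CPM in the senescent DMSO group at 6 h, in the direction of the labels, although counts do not separate mutant from endogenous RNA. Among senescent cells TERF2 was lower with GNF-7 than with vehicle, at 222 ± 8.60 CPM after 6 h (log2 fold change -0.37, edgeR adjusted p 7.34e-12). At 24 h vehicle gave 220 ± 7.26 CPM, itself lower than at 6 h (-0.39), and GNF-7 132 ± 5.38 CPM (-0.73, adjusted p 3.53e-24). The part of this lower TERF2 in the results below was not tested. The 6 mesenchymal markers summed to 9934 to 10233 CPM in cycling libraries and 11215 to 12209 CPM in senescent DMSO libraries at 6 h. They summed to 9780 to 10688 CPM with GNF-7 at 6 h, 11366 to 12631 CPM in vehicle at 24 h and 7081 to 7458 CPM with GNF-7 at 24 h, where SPARC (-2.38) and FN1 (-1.13) were lower than in vehicle. The part of this in the GNF-7 results was not tested. The 5 epithelial markers, KRT8 and KRT18 among them, summed to 743 to 759 CPM in cycling and 290 to 473 CPM in senescent libraries, while EPCAM and the 3 leukocyte markers each had at most 7 counts in any library. The share of counts from mitochondrial genes was 3.75% to 5.01% in cycling cells, 11.2% to 12.4% in senescent DMSO cells at 6 h and 13.2% to 15.3% with GNF-7 at 6 h. By 24 h it was 15.1% to 18.7% in vehicle and 22.6% to 24.1% with GNF-7. That share was thus higher in senescent cells, with GNF-7 at both times and in vehicle at 24 h against 6 h, and its part in the results was not tested. In bulk RNA, fewer cells of a kind and less RNA per cell cannot be told apart, and this holds for every level given here.

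DNA methylation at CpG sites is copied after each round of replication. UHRF1 recognises hemimethylated CpG and recruits DNMT1, the maintenance methyltransferase, and HELLS (LSH) is a SNF2-family remodeller that opens packed chromatin for methylation. DNMT3A and DNMT3B add methyl groups to unmethylated sites. Polycomb repressive complex 2 (PRC2) methylates H3K27 through its catalytic subunit EZH2, which needs EED and SUZ12. SUV39H1 and SUV39H2 are the paralogous enzymes that trimethylate H3K9 at pericentromeric heterochromatin, where HP1 proteins bind. Several of these genes are known targets of E2F factors and are highest in dividing cells.

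In senescent cells 9 of the 10 genes were lower than in cycling cells and 1, DNMT3A, was higher. An edgeR quasi-likelihood test with Benjamini-Hochberg adjustment over all genes called each at an adjusted p under 0.05. The comparison called 70.0% of all genes tested, 34.4% lower and 35.6% higher, so a call by itself was common here. The median log2 fold change of the 10 genes was -1.59, beside 0.06 over all genes tested. For each of the 10 genes the 3 libraries of one group lay apart from the 3 of the other, as they did for 71.5% of all genes tested.

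After GNF-7 the 10 genes divided. At 6 h, 6 were called lower and 1 higher, in a comparison that called 21.4% of all genes lower and 17.9% higher. At 24 h, 6 were called lower and 3 higher, beside 29.7% and 29.3% of all genes (58.9% in either direction). The UHRF1, DNMT1, HELLS, EED and SUV39H2 RNAs fell at both times. EZH2 RNA rose at both times, DNMT3B at 24 h, and DNMT3A fell at 6 h and rose at 24 h. SUZ12 was not called at either time.

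**Figure D1:**
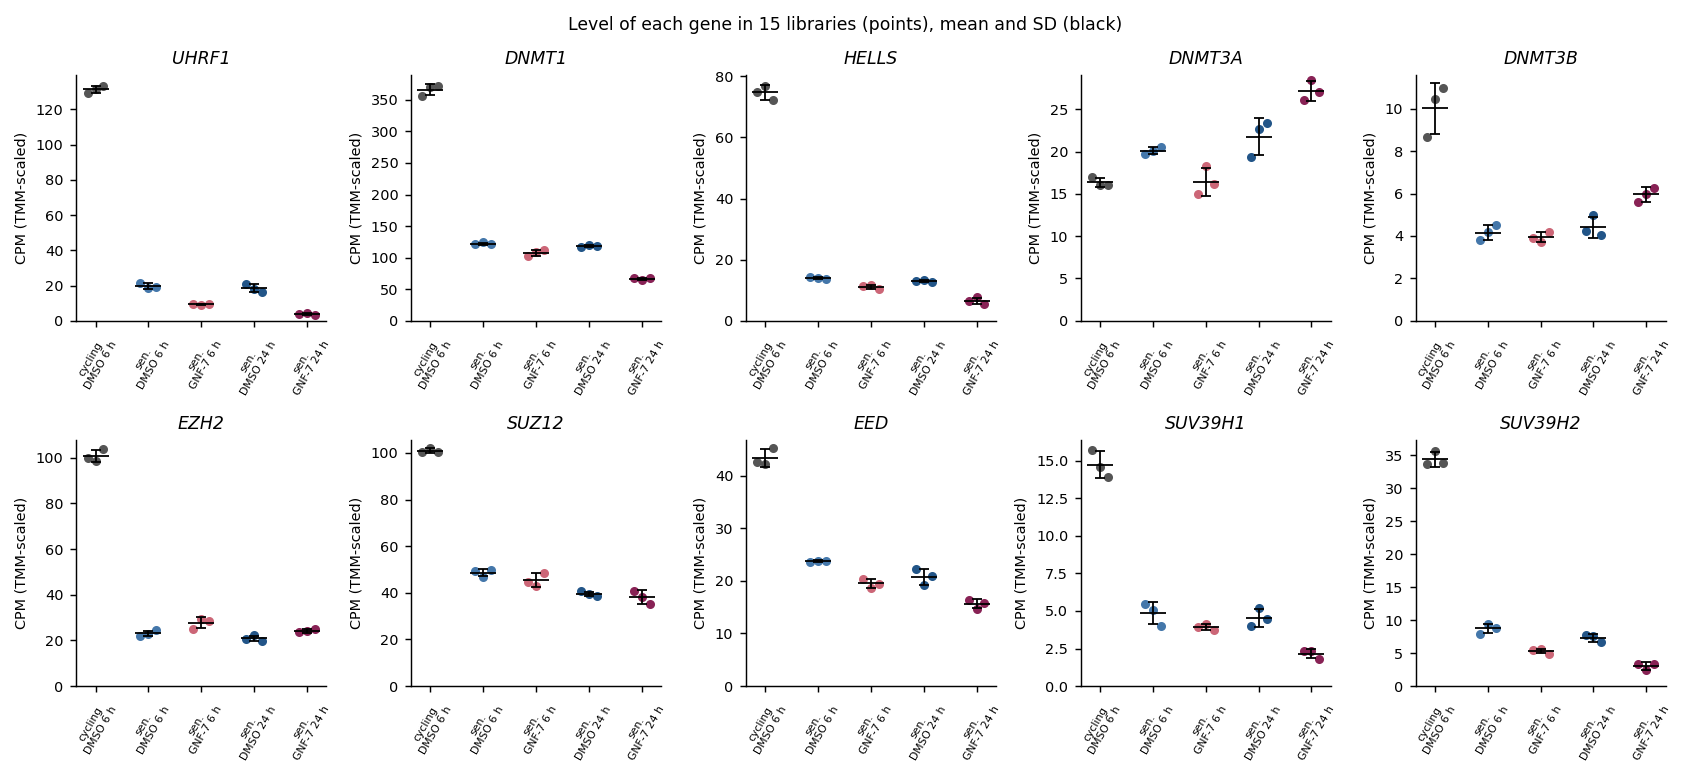
CPM (vertical axis, from 0, a separate scale for each gene) of each of the 10 genes in the 5 groups, with 1 point per library and the mean and SD in black. Cycling libraries are highest in 9 panels, and DNMT3A, highest after GNF-7 for 24 h at a mean of 27.2 CPM, is the exception.

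Among the maintenance genes, UHRF1 (ENSG00000276043, GRCh38 chromosome 19, 4903080 to 4962154, plus strand) showed the largest fall of the 10 in both senescence and GNF-7. It was at 129, 132 and 133 CPM in the cycling libraries and at 21.4, 18.6 and 19.2 CPM in the senescent DMSO libraries at 6 h. The log2 fold change was -2.74 (SE 0.066, adjusted p 1.91e-42), which is 6.66-fold lower. GNF-7 for 6 h left 9.63, 8.95 and 9.61 CPM, all under the vehicle libraries (log2 fold change -1.07, SE 0.081, adjusted p 2.09e-17). At 24 h the vehicle libraries held 20.8, 18.0 and 16.4 CPM and the GNF-7 libraries 4.07, 4.42 and 3.29 CPM, with no overlap. That difference was -2.23 on the log2 scale (SE 0.095, adjusted p 2.38e-29), and the mean after GNF-7 for 24 h was 2.99% of the cycling mean. The senescence and 6 h GNF-7 comparisons share the senescent DMSO libraries at 6 h and are not independent.

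DNMT1 (ENSG00000130816, chromosome 19, 10133345 to 10231286, minus strand) was at 356, 370 and 372 CPM in cycling cells and at 122, 124 and 121 CPM in senescent DMSO cells at 6 h. The fall was 2.99-fold (log2 fold change -1.58, SE 0.039, adjusted p 6.64e-43). With GNF-7 for 6 h it was at 103, 108 and 111 CPM, slightly but in each library below vehicle (-0.19, SE 0.039, adjusted p 8.55e-05). At 24 h it was at 118, 120 and 118 CPM in vehicle and 67.5, 63.9 and 67.1 CPM with GNF-7 (-0.84, SE 0.041, adjusted p 4.83e-27). DNMT1 changed less than UHRF1 in each of these comparisons. Within a library, the log2 ratio of UHRF1 to DNMT1 counts averaged -1.48 ± 0.015 in cycling cells, -2.64 ± 0.117 in senescent DMSO cells at 6 h and -3.51 ± 0.093 after GNF-7 for 6 h. At 24 h it averaged -2.69 ± 0.179 in vehicle and -4.08 ± 0.250 after GNF-7 (SD, n = 3 each). The groups did not overlap in the senescence comparison or at either time of GNF-7, and each gave an exact two-sided permutation p of 0.1, the smallest that 3 against 3 libraries allow (adjusted 0.168 over 32 tests of ratios).

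HELLS (ENSG00000119969, chromosome 10, 94501434 to 94613905, plus strand) followed the same order. Its cycling libraries held 74.8, 76.95 and 72.3 CPM and the senescent DMSO libraries at 6 h 14.2, 13.9 and 13.7 CPM (log2 fold change -2.42, SE 0.073, adjusted p 3.98e-38). GNF-7 gave 11.3, 11.7 and 10.4 CPM at 6 h (-0.32, SE 0.083, adjusted p 0.00121). At 24 h the levels were 12.95, 13.5 and 12.7 CPM in vehicle and 6.55, 7.63 and 5.545 CPM with GNF-7 (-0.99, SE 0.092, adjusted p 1.22e-14). Neither time of treatment left an overlap between HELLS libraries. In the annotation HELLS overlaps AL138759.1 and TBC1D12 on the same strand, and 4.32% of its exon bases are shared with other genes on that strand. A part of HELLS counts may thus be split with such genes. DNMT1 overlaps S1PR2 on its own strand, and 0.847% of its exon bases are shared on that strand.

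Promoter sequence was set beside these falls, because E2F sites are a known feature of replication-linked genes. RefSeq promoters (GRCh38.p14, 250 bases before to 50 after 1 start per gene) were found for all 10 genes and searched on both strands for the E2F octamers TTTGGCGC, TTTCCCGC, TTTCGCGC and TTTGCCGC. At least 1 octamer lay in 5 of the 10 promoters, those of DNMT1, UHRF1, EZH2, SUZ12 and HELLS, and in 3.33% of 27305 promoters of the same length. Of 19 S phase genes with a promoter entry, 14 had one. Each octamer contains a CpG, and the median promoter has 11 CpG in the 250 bases before the start. The 5 promoters with an octamer had 18 to 38, and the other 5 had 3 to 38. The share with an octamer among promoters of like CpG number was not computed. The sequences below show where the octamers (in capitals) lie in HELLS, UHRF1 and SUZ12. A stretch of the DNMT3B window, which has none, is given beside them. Each is read 5′ to 3′ on the plus strand, which is the strand of all 4 genes, and ends at the base before the RefSeq start.
HELLS, chr10:94545638-94545787: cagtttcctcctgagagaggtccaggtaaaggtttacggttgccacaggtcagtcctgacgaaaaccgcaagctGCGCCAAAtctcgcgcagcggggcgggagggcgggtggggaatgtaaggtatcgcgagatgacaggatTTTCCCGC
UHRF1, chr19:4909471-4909500: caaatgccgagttttcGCGGGAAAaaaatc
SUZ12, chr17:31936757-31937006: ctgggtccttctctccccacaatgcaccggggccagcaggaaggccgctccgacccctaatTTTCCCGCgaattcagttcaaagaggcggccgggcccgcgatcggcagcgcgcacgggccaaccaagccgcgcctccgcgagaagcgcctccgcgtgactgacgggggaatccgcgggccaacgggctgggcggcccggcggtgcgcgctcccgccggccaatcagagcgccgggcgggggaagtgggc
DNMT3B, chr20:32779702-32779851: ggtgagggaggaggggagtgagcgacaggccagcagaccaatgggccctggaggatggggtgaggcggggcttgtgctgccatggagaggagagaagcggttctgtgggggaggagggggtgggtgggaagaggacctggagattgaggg

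HELLS held 2 octamers, at -76 to -69 and at -8 to -1 from the start, and UHRF1 1 at -14 to -7. In SUZ12 the octamer lay farther out, at -189 to -182. The UHRF1 stretch is cut to 30 bases because GENCODE 29 places it in an exon. No octamer was found in these windows of DNMT3A, DNMT3B, EED, SUV39H1 and SUV39H2, and 4 of those 5 RNAs were lower in senescence. Only 1 window per gene was searched, and the part of E2F sites in the senescence changes was not tested. The windows of DNMT3B, HELLS, UHRF1 and DNMT1 lay wholly inside the annotated span of their gene. For DNMT3B the span begins at base 32762385 and the window at 32779602. Sequence at other starts, such as the first base of DNMT3B, was not searched, so a lack of octamers holds for the window only. CCAAT, searched on both strands, lay in 6 of the 10 promoters and in 35.7% of all. CHR hexamers (TTTGAA or TTCGAA) lay in 2 of the 10, SUZ12 and SUV39H2, and in 16.6% of all. These matches describe the letters of the windows.

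The de novo methyltransferases went opposite ways in senescence, and both rose with 24 h of GNF-7, where the maintenance genes fell. DNMT3A (ENSG00000119772, chromosome 2, 25227855 to 25342590, minus strand) was at 17.0, 16.0 and 16.0 CPM in cycling cells and 19.7, 20.05 and 20.5 CPM in senescent DMSO cells at 6 h. This rise of 1.23-fold (log2 fold change 0.30, SE 0.081, adjusted p 9.24e-04) was the only one among the 10 genes. GNF-7 for 6 h gave 14.97, 18.2 and 16.1 CPM, below each vehicle library (-0.29, SE 0.080, adjusted p 0.00256). After 24 h the sign was opposite, with 19.3, 22.6 and 23.4 CPM in vehicle and 26.1, 28.4 and 27.1 CPM with GNF-7 (0.32, SE 0.077, adjusted p 2.32e-04).

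DNMT3B (ENSG00000088305, chromosome 20, 32762385 to 32809356, plus strand) fell in senescence from 8.65, 10.4 and 11.0 CPM to 3.81, 4.17 and 4.51 CPM (log2 fold change -1.27, SE 0.135, adjusted p 9.23e-13). At 6 h of GNF-7 its libraries, at 3.92, 3.70 and 4.17 CPM, overlapped those of vehicle (-0.08, 95% interval -0.37 to 0.21, adjusted p 0.713). At 24 h it was at 4.21, 4.97 and 4.02 CPM in vehicle and 5.61, 5.98 and 6.28 CPM with GNF-7, a rise without overlap (0.43, SE 0.140, adjusted p 0.00627). DNMT3B after GNF-7 for 24 h was nevertheless below its cycling level (0.75 lower on the log2 scale, SE 0.130, adjusted p 4.97e-07). That comparison called 80.3% of all genes. The log2 ratio of DNMT3A to DNMT3B counts was 0.71 ± 0.227 in cycling cells and 2.27 ± 0.091 in senescent DMSO cells at 6 h (SD, n = 3 each), without overlap (exact permutation p = 0.1, adjusted 0.168). GNF-7 moved the ratio by -0.21 at 6 h and -0.11 at 24 h, and the libraries overlapped at both times.

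The 3 PRC2 core genes were all lower in senescence, EZH2 most. EZH2 (ENSG00000106462, chromosome 7, 148807383 to 148884321, minus strand), the catalytic subunit, was at 100.1, 98.7 and 103.6 CPM in cycling cells and at 22.1, 23.0 and 24.4 CPM in senescent DMSO cells at 6 h. It was 4.35-fold lower (log2 fold change -2.12, SE 0.060, adjusted p 1.43e-39). With GNF-7 it was at 25.0, 29.5 and 28.6 CPM at 6 h (0.26, SE 0.064, adjusted p 7.44e-04). At 24 h vehicle gave 20.4, 22.2 and 19.9 CPM and GNF-7 23.5, 23.9 and 24.9 CPM (0.21, SE 0.066, adjusted p 0.00564). Every GNF-7 library was above every vehicle library of its time, yet the highest, at 29.5 CPM, was far under the lowest cycling library.

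SUZ12 (ENSG00000178691, chromosome 17, 31937018 to 32001045, plus strand), the subunit that holds the complex together, was at 100.3, 102 and 100.4 CPM in cycling cells and at 49.6, 46.8 and 49.7 CPM in senescent DMSO cells at 6 h (log2 fold change -1.05, SE 0.052, adjusted p 4.50e-27). GNF-7 gave 44.5, 42.8 and 48.7 CPM at 6 h, which overlapped vehicle (-0.10, 95% interval -0.21 to 0.004, adjusted p 0.134). At 24 h the vehicle libraries held 40.6, 39.3 and 38.6 CPM and the GNF-7 libraries 40.95, 38.2 and 35.1 CPM (-0.05, 95% interval -0.16 to 0.06, adjusted p 0.424). SUZ12 was the only one of the 10 called between the vehicle times, lower at 24 h than at 6 h (-0.30, SE 0.055, adjusted p 3.23e-05). The pseudogene copy SUZ12P1 had 292 to 430 counts per library, and reads may have been divided between the copies, so SUZ12 values are uncertain to that extent.

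EED (ENSG00000074266, chromosome 11, 86244544 to 86278813, plus strand), which binds the methylated histone tail and stimulates the enzyme, fell least in senescence. It went from 42.5, 42.2 and 45.2 CPM to 23.5, 23.8 and 23.7 CPM (log2 fold change -0.87, SE 0.067, adjusted p 4.28e-18). GNF-7 lowered it to 20.4, 18.7 and 19.4 CPM at 6 h (-0.28, SE 0.071, adjusted p 0.00102). At 24 h it was at 22.2, 19.1 and 20.9 CPM in vehicle and 16.3, 14.7 and 15.9 CPM with GNF-7 (-0.41, SE 0.074, adjusted p 2.69e-06).

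Transcript proportions within PRC2 were read as ratios within a library. With 3 against 3 libraries the exact permutation p cannot fall under 0.1, so none of these ratios could pass the 0.05 threshold. The log2 ratio of EZH2 to EED counts averaged 1.22 ± 0.021 in cycling cells and -0.03 ± 0.067 in senescent DMSO cells at 6 h, then 0.50 ± 0.189 after GNF-7 for 6 h. At 24 h it averaged 0.01 ± 0.180 in vehicle and 0.63 ± 0.089 with GNF-7 (SD, n = 3 each). EZH1, the paralog of EZH2 that can replace it in PRC2 of non-dividing cells, moved the other way in senescence, from 23.1, 24.8 and 23.9 CPM to 54.4, 52.9 and 50.5 CPM (log2 fold change 1.14, SE 0.059, adjusted p 7.54e-26). The log2 ratio of EZH2 to EZH1 counts went from 2.07 ± 0.071 to -1.18 ± 0.127, a change of sign in all libraries. It stayed between -1.40 and -1.05 in every senescent library, with GNF-7 libraries overlapping those of vehicle at both times. The log2 ratio of EZH2 to SUZ12 counts shifted by -1.07 in senescence, 0.36 with GNF-7 at 6 h and 0.27 at 24 h, each without overlap. Between the vehicle times it shifted by 0.15, also without overlap, so non-overlap of this ratio arose without GNF-7 too. Each of the ratio shifts without overlap again reached the smallest exact permutation p of 0.1 (adjusted 0.168).

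**Figure D2:**
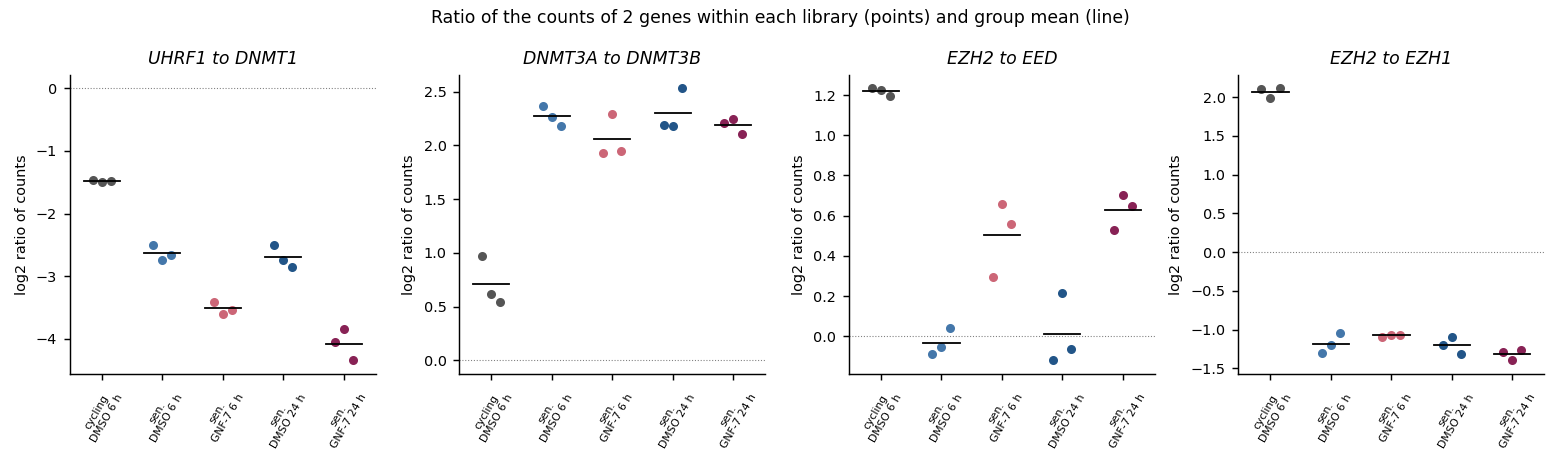
Log2 ratio of the counts of 2 genes within each library (vertical axis) in the 5 groups, with 1 point per library and a line at the group mean. The ratio of UHRF1 to DNMT1 is lowest after GNF-7 for 24 h (-4.08), and the ratio of EZH2 to EZH1 is above 0 in cycling libraries only.

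Both H3K9 methyltransferase paralogs fell in senescence and again with 24 h of GNF-7. SUV39H2 (ENSG00000152455, chromosome 10, 14878820 to 14904315, plus strand) was at 33.7, 35.7 and 33.9 CPM in cycling cells and at 7.98, 9.47 and 8.775 CPM in senescent DMSO cells at 6 h (log2 fold change -1.98, SE 0.098, adjusted p 4.80e-27). GNF-7 for 6 h gave 5.445, 5.62 and 4.93 CPM (-0.71, SE 0.113, adjusted p 4.14e-07). At 24 h its levels were 7.72, 7.58 and 6.66 CPM in vehicle and 3.31, 2.44 and 3.42 CPM with GNF-7 (-1.26, SE 0.127, adjusted p 2.46e-13). None of these groups overlapped.

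SUV39H1 (ENSG00000101945, chromosome X, 48695554 to 48709012, plus strand) went from 15.7, 14.6 and 13.9 CPM in cycling cells to 5.43, 5.08 and 4.02 CPM (log2 fold change -1.60, SE 0.131, adjusted p 4.67e-17). At 6 h of GNF-7 it was at 3.92, 4.15 and 3.72 CPM, which overlapped vehicle and was not called (-0.30, 95% interval -0.59 to -0.02, adjusted p 0.0916). Without the third replicate of senescent DMSO at 6 h, the lowest of its group, this difference was called (-0.42, adjusted p 0.0323). At 24 h it was at 3.99, 5.18 and 4.45 CPM in vehicle and 2.34, 2.31 and 1.79 CPM with GNF-7 (-1.08, SE 0.162, adjusted p 4.47e-08). An annotated gene on the opposite strand covers 20.3% of SUV39H1 exon bases, and whether counting used strand is not given in the sources used here. If it did not, SUV39H1 counts may include reads of that gene.

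**Figure D3:**
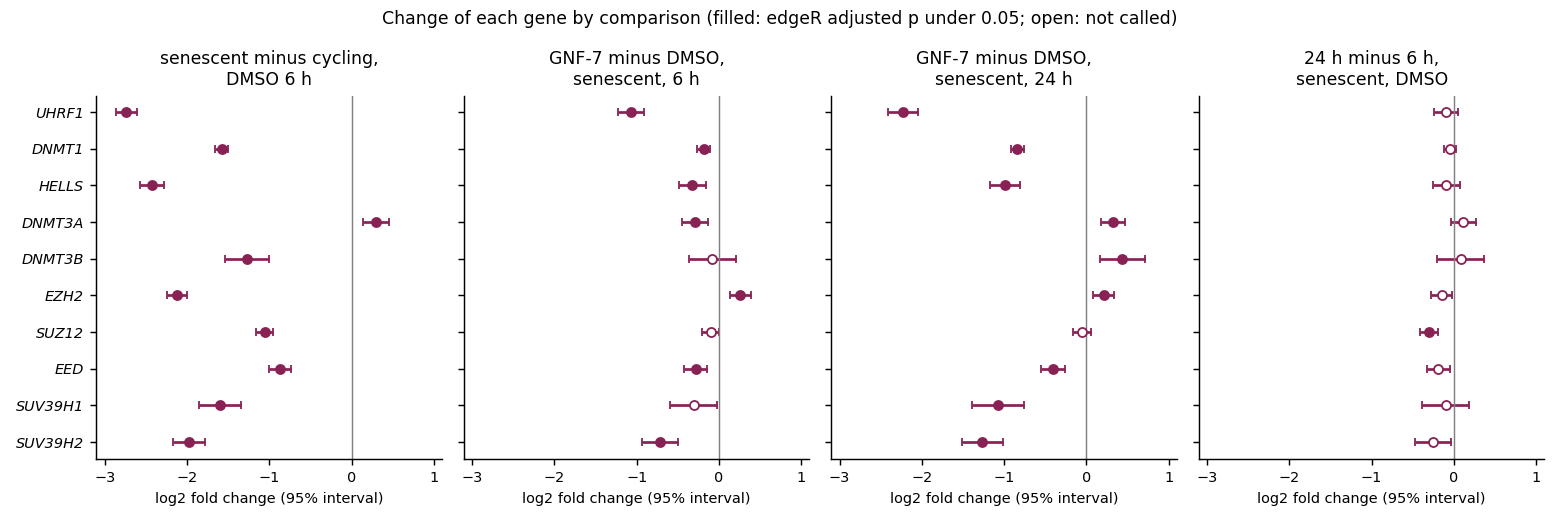
Log2 fold change of each gene (horizontal axis) with its 95% interval in 4 comparisons, with filled points where edgeR's adjusted p is under 0.05 and open points elsewhere. UHRF1 lies farthest left in the senescence (-2.74) and both GNF-7 panels, and 1 point, SUZ12, is filled in the vehicle panel.

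For 7 of the 10 genes the interaction term of the same fit separated the 24 h effect of GNF-7 from the 6 h effect. It called 30.8% of all genes, 18.0% with a lower and 12.8% with a higher effect at 24 h. UHRF1, DNMT1, HELLS, SUV39H1 and SUV39H2 had the lower effect at 24 h, by -1.16, -0.65, -0.66, -0.77 and -0.55 on the log2 scale, with adjusted p from 6.37e-15 (DNMT1) to 0.00984 (SUV39H2). DNMT3A had the higher effect, by 0.61 (adjusted p 8.77e-06). DNMT3B was close to the threshold, at 0.51 with an adjusted p of 0.0461, and it was not called in 14 of 20 alternatives, with adjusted p up to 0.121. The SUV39H2 difference was not called without the second GNF-7 replicate at 24 h (-0.41, adjusted p 0.0765). The 3 PRC2 genes were not called, with differences of -0.05 for EZH2 (95% interval -0.23 to 0.13), 0.05 for SUZ12 (-0.11 to 0.20) and -0.13 for EED (-0.33 to 0.07).

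Vehicle at 24 h against 6 h, which measures time in DMSO without GNF-7, changed these genes little. It called 9.29% of all genes lower and 9.26% higher, and SUZ12 alone of the 10. Between the vehicle times the libraries of 5 of the 10 genes did not overlap, beside 32.9% of all genes tested. EED was near the threshold (-0.19, adjusted p 0.0509) and was called in several alternatives. Scaling to total counts, without a composition factor, moved the median log2 difference of all genes from 0.009 to -0.10 here, lowered the share of called genes that were higher from 49.9% to 12.5%, and called 6 of the 10 genes lower, so calls in this comparison depended on the scaling.

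Ranked over all 5 groups, UHRF1, DNMT1, HELLS and SUV39H2 had the same order of mean level: cycling, vehicle at 6 h, vehicle at 24 h, GNF-7 at 6 h, GNF-7 at 24 h. For these 4 genes each neighbouring pair differed by its adjusted p except the vehicle times. The 2 further pairs this order uses, vehicle at 24 h against GNF-7 at 6 h and GNF-7 at 24 h against 6 h, called 41.7% and 47.8% of all genes. EED and SUV39H1 had that order too, but neither the vehicle times nor vehicle at 24 h and GNF-7 at 6 h differed (EED adjusted p 0.0509 and 0.345, SUV39H1 0.711 and 0.278). EZH2 came out as cycling, GNF-7 at 6 h, GNF-7 at 24 h, vehicle at 6 h, vehicle at 24 h, and the last 3 were not separated between neighbours (adjusted p 0.446 and 0.116). GNF-7 at 24 h against vehicle at 6 h, one of these pairs, called 61.6% of all genes. DNMT3A was lowest in cycling cells and after GNF-7 for 6 h, which did not differ (0.01 on the log2 scale, SE 0.082, adjusted p 0.925), in a comparison that called 75.7% of all genes.

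Levels between genes were compared only per length, as CPM per kilobase of merged GENCODE 29 exons (RPKM), which understates genes with many little-used exons. In cycling cells DNMT1 led at 37.4 ± 0.872 RPKM, followed by UHRF1 at 25.5 ± 0.377, EZH2 at 22.3 ± 0.564 and SUZ12 at 15.4 ± 0.169, with DNMT3B at 2.16 ± 0.262 and DNMT3A last at 1.36 ± 0.045 (SD, n = 3). After GNF-7 for 24 h DNMT1, at 6.75 ± 0.203 RPKM, was still first, and SUZ12 and EZH2 followed at 5.82 ± 0.447 and 5.33 ± 0.158. DNMT3A was then the 4th at 2.26 ± 0.099 RPKM and UHRF1 the 8th at 0.763 ± 0.113, close to HELLS at 0.648 ± 0.103 and SUV39H1 at 0.637 ± 0.091.

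The other genes of these pathways were read from lists of partners and readers. Their counts stand beside 34.4% of all genes called lower and 35.6% higher in senescence, and 29.7% lower and 29.3% higher with GNF-7 at 24 h. Of 16 tested partners, readers and erasers of DNA methylation (18 listed), 15 were lower and none higher in senescence, with a median log2 fold change of -0.39. CDCA7, the zinc finger partner that activates HELLS, fell from 68.6 ± 1.74 to 8.22 ± 0.642 CPM (-3.06, SE 0.081, adjusted p 5.46e-41), and PCNA, the replication clamp that DNMT1 binds, by 1.17 on the log2 scale. UHRF2, the paralog of UHRF1, was lower in senescence (-0.77) but higher after GNF-7 for 6 h (0.30, adjusted p 2.95e-06) and not called at 24 h (0.07). At 24 h of GNF-7, 5 of the 16 were lower and 1 higher (median 0.01), a share of lower calls near that of all genes. CDCA7 (-0.81), PCNA (-0.44) and the glycosylase TDG (-0.68) were among the lower.

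Of 13 tested PRC2 accessory subunits and H3K27 demethylases, 8 were lower and 4 higher in senescence (median -0.50), and 7 were lower and 3 higher after GNF-7 for 24 h (median -0.15). PHF19, which anchors PRC2 at CpG islands, fell in both (-1.55 and -0.90). The demethylase KDM6B rose in senescence from 22.2 ± 0.984 to 51.4 ± 3.68 CPM (1.21), as did JARID2 (0.82), a cofactor of PRC2. In Polycomb repressive complex 1 (PRC1), which binds the PRC2 mark, 10 of 19 genes were lower and 3 higher in senescence (median -0.13). With 24 h of GNF-7, 10 were higher and 2 lower (median 0.17). PCGF5, a RING finger partner of the PRC1 ligase, fell in senescence (-0.76) and rose with 24 h of GNF-7 (0.48, SE 0.054, adjusted p 1.03e-11). Of 25 genes of the H3K9 and H4K20 systems, 15 were lower and 7 higher in senescence (median -0.30), and 13 lower and 6 higher with 24 h of GNF-7 (median -0.20). The HP1 gene CBX5 fell in both (-1.46 and -0.90), as did CHAF1A of the replication-coupled histone chaperone (-2.38 and -0.91).

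Genes of S phase and mitosis were also lower in senescence and after GNF-7 for 24 h. All 23 S phase genes were lower in senescence, with a median log2 fold change of -2.31, and 22 of 23 after GNF-7 for 24 h, with a median of -0.89. At 6 h, 15 were lower and 2 higher (median -0.28), beside 21.4% lower and 17.9% higher of all genes. RRM2, a subunit of ribonucleotide reductase, was at 343 ± 4.41 CPM in cycling cells, 43.3 ± 3.37 CPM in vehicle at 24 h and 8.04 ± 0.490 CPM with GNF-7. All 17 mitotic genes were lower in senescence (median -1.71) and 16 of 17 after GNF-7 for 24 h (median -1.06). Between the vehicle times 11 of the 17 were lower (median -0.22), while 3 of 23 S phase genes were lower and 1 higher, and UHRF1, DNMT1 and HELLS were not called. That comparison called 9.29% of all genes lower and 9.26% higher. The part of the number of dividing cells in the levels of the 10 genes was not tested. Relative to PCNA within a library, UHRF1 was lower, by -1.57 in senescence, -0.91 with GNF-7 at 6 h and -1.78 at 24 h on the log2 scale, with no overlap of libraries (exact permutation p = 0.1 each, adjusted 0.168). PCNA itself fell by 1.17 in senescence, less than each of the 23 S phase genes, of which the smallest fall was 1.43, so this ratio does not set UHRF1 against S phase genes at large.

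**Figure D4:**
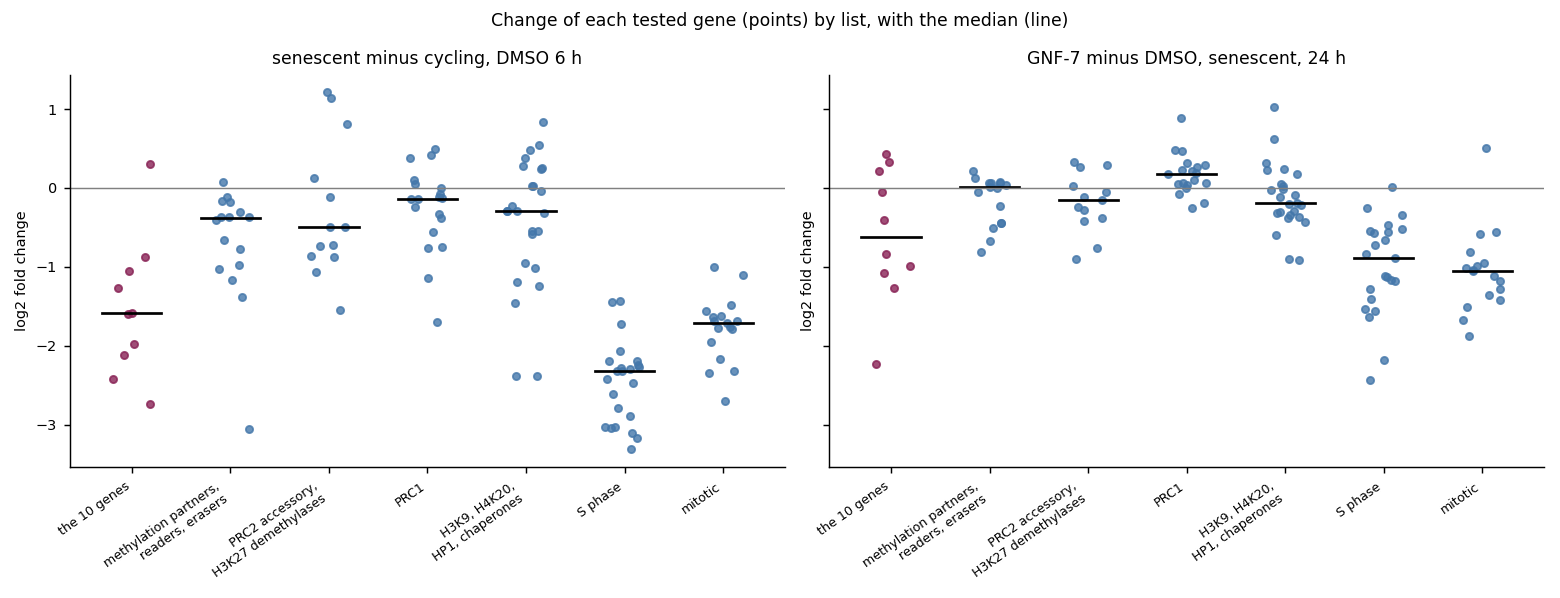
Log2 fold change (vertical axis) of each tested gene by list, with 1 point per gene and a line at the list's median, for senescence (left) and GNF-7 for 24 h (right). The 10 genes spread from -2.74 to 0.30 on the left, while every S phase gene there lies below 0 around a median of -2.31.

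Profiles over the 15 libraries were compared by the root mean square difference of log2 CPM after each gene was centred on its mean, among 11207 genes with a mean of at least 5 CPM. The profile nearest to DNMT1 was that of PHF19 (0.057), which was also nearest to SUV39H1 (0.120). MCM4, a subunit of the replicative helicase, was nearest to HELLS (0.107), and KIFC1, a mitotic motor, to SUV39H2 (0.137). UHRF1 had no neighbour as near, with ZNF367 at 0.202 and CLSPN at 0.210. EZH2 was nearest to PM20D2 (0.137) and HMGB2 (0.137), SUZ12 to BAZ1B (0.069), EED to PDZD8 (0.045), DNMT3A to HERC2P2 (0.080) and DNMT3B to STK39 (0.111). Among the 10 themselves DNMT1 and SUV39H1 were the nearest pair (0.136), and DNMT3A and UHRF1 the farthest (1.82). These values describe likeness in libraries that share the same 5 groups.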

How the data were processed

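The authors deposited 1 table of raw counts per Ensembl gene, without normalization. The submitters' processing notes name bcl2fastq 2.20.0.422, STAR 2.7.9a, featureCounts 1.5.1 and the build GRCh38. The annotation release and the strand setting are not given in the sources used here. Per the labels' protocols, libraries came from a stranded mRNA kit. Of 60673 rows, 3 were left out because 1 entry was broken over lines. Columns were matched to samples by library name.

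Counts were tested with edgeR 4.0.16 (R 4.3.3; filterByExpr, TMM, robust quasi-likelihood fit over all 15 libraries, group term only), and p-values were adjusted by Benjamini-Hochberg over 18563 genes. Calls were made at an adjusted p under 0.05. CPM uses TMM-scaled library sizes. Intervals are 95% normal intervals from the SE. Log2 ratios within a library add 0.5 to each count, and profiles add 0.5 CPM. Exact permutation tests used scipy 1.17.1. Positions and exon lengths come from GENCODE 29. Libraries of a group differed by more than sampling noise (chi-square per degree of freedom at least 3.10), so none was counted as a duplicate.

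On simulated counts of the senescence comparison over 17965 genes, edgeR recovered 152 of 200 genes changed 2-fold, with 11 false calls. Only these 200 genes differed in the simulation, whereas the measured comparison called 70.0% of all genes tested. The simulation therefore does not show error rates or scaling under so broad a change. The genes, lists and tests were chosen with earlier results of these data known. Named genes are the 10, TERF2, the 3 smallest p of each list in senescence and in GNF-7 at 24 h, and the 3 nearest profiles per gene, of which not all are printed. EZH1 entered through its listed ratio with EZH2. UHRF2, JARID2, DDX4, SPARC, FN1 and SETDB2 were named outside that rule after their values were seen. Alternatives were RLE size factors, total counts, testing without a filter, keeping only genes with a mean of 5 CPM or more, DESeq2 1.42.0, limma voom (3.58.1), a replicate block, only the groups compared, and leaving out each library.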

Additional observations from a re-analysis of the deposited data

Results flagged for a closer look

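GNF-7 changed 7 of the 10 genes to a different extent at 24 h than at 6 h, by an edgeR test of the interaction itself, adjusted over all genes. The same test called 30.8% of all genes, 18.0% with a lower and 12.8% with a higher effect at 24 h. The effect on DNMT1 was -0.65 at 24 h relative to 6 h on the log2 scale, on UHRF1 -1.16, on HELLS -0.66, on SUV39H1 -0.77 and on SUV39H2 -0.55. The effect on DNMT3A was 0.61 and on DNMT3B 0.51. DNMT3A changed sign between the times, from -0.29 to 0.32, and both effects were called. DNMT3B is the least certain of the 7, since its call was lost in 14 of 20 alternatives. The 2 times have separate vehicle libraries and share none.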

How the results depend on the processing

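In senescence and at 24 h of GNF-7, the number of the 10 genes called was the same (10 and 9) in all 14 alternatives, and at 6 h it was 7 to 8. The number of all genes called stayed within 1.5 times in each. The interaction called 5 to 7 of the 10 when 1 library was left out. In the vehicle comparison, 1 gene was called in the main analysis and 2 with RLE size factors, the 5 CPM filter, DESeq2, the replicate block or only the groups compared. Total counts called 6 there, and leaving out 1 library 1 to 2. The cause of these moves was not tested.

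Signs turned only for values near 0 that were not called: SUZ12 at 24 h of GNF-7 (0.047 with the 5 CPM filter), SUZ12 in the interaction (-0.0085 without the first GNF-7 replicate at 24 h, in a range of -0.0085 to 0.10 over left-out libraries) and DNMT3B in the vehicle comparison (-0.028 with total counts, and -0.011 without the second vehicle replicate at 24 h, in a range of -0.011 to 0.14). SUZ12 at 6 h of GNF-7 was called without the third GNF-7 replicate (-0.16, adjusted p 0.0339). The DNMT3B interaction was not called with RLE (adjusted p 0.0530), no filter (0.0955), DESeq2 (0.0532), voom (0.0657) or only the groups compared (0.0584). Total counts raised the median of all genes in senescence from 0.06 to 0.19. The 10 genes kept their calls there.

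Groups share replicate numbers. Same-numbered libraries correlated weakly (-0.032 to 0.058), and 13 of 24 correlated best with their own number among 3 candidates. In senescence none did, with same-number correlations of -0.019, -0.032 and -0.009. Between the vehicle times all did, at 0.050, 0.021 and 0.016. Whether the senescent groups are weakly paired was not tested. With a replicate block, EED was called in the vehicle comparison (-0.19, adjusted p 0.0417), which gave 2 of the 10. All genes called there went from 3443 to 3711, and no other call of the 10 changed. Depth limits SUV39H1, SUV39H2 and DNMT3B most, with means of at most 8.74 CPM in senescent cells. After GNF-7 for 24 h it also limits UHRF1, at a mean of 3.93 CPM (99 to 136 counts per library), and HELLS, at 6.57 CPM (167 to 235 counts).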

Other observations

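Germline genes that DNA methylation is known to silence in somatic cells were nearly all too low to test. Of 14 listed, 12 did not pass the filter on low counts. MAEL, a gene of the piRNA pathway, had 0 to 6 counts per library in cycling cells, 12 to 23 in senescent DMSO cells at 6 h, 7 to 38 after GNF-7 for 6 h, 16 to 22 in vehicle at 24 h and 37 to 59 after GNF-7 for 24 h. The 24 h groups did not overlap (log2 fold change 1.34, SE 0.432, edgeR adjusted p 0.00670). MAEL was not called with GNF-7 at 6 h (0.34, adjusted p 0.606) or in the interaction (1.00, adjusted p 0.247). SYCP3, the other gene tested, had 0 to 2 counts per library in cycling cells and 2 to 12 in senescent DMSO cells at 6 h. It was not called with GNF-7 at 6 h (-0.73, adjusted p 0.465) or at 24 h (0.18, adjusted p 0.819). SYCP1, TDRD1, TEX15 and DDX43, also listed, had no count in any library. DDX4, a germ cell helicase chosen after its values were seen, had no count in cycling cells or in vehicle at 24 h. It had 0 to 2 counts per library in senescent DMSO cells at 6 h, 0 to 8 after GNF-7 for 6 h and 5 to 13 after GNF-7 for 24 h. These counts are a very small part of each library, and DNA methylation was not measured.

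SETDB2, an H3K9 methyltransferase outside the SUV39H pair, rose at both times of GNF-7 (0.92 at 6 h, SE 0.089, adjusted p 2.17e-13, and 1.02 at 24 h, SE 0.089, adjusted p 1.57e-15). It was chosen after its values were seen, as the highest of its list at both times. SUV39H1 and SUV39H2 were not higher at either time.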
